A study of Mus musculus with 15 samples.

Results

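Interferon-stimulated genes and the genes of MHC class I antigen presentation were followed by RNA sequencing in the striatum and the cerebral cortex of mice without Slc1a4, which encodes ASCT1, a carrier of neutral amino acids, and of wild-type mice. The set was a list of 33 gene symbols. Of these, 32 had a normalized count of 10 or more in at least 3 of the 15 libraries, among 17030 such genes of 26595 in the table. Mx1, an antiviral GTPase, was the member left out: it reached 10 in 2 libraries and ranged from 2.24 to 18.1 normalized counts. The member nearest to the limit on the other side was Oas1a, which reached 10 in 8 libraries and ranged from 4.67 to 17.3.

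The libraries formed 4 groups: 3 of knockout (KO) striatum, 4 of wild-type (WT) striatum, 4 of KO cortex and 4 of WT cortex. All came from male C57Bl/6 mice aged 5 months, the KO mice with the genotype SLC1a4 -/-, and no treatment is named. The labels do not say which part of the gene was deleted, nor whether each replicate is an animal of its own. The p-values therefore speak only for the spread among these libraries, which may be technical. Values of single libraries are given in the order of their replicate numbers, which were 2 to 4 in KO striatum, 1 to 4 in KO cortex and 5 to 8 in both WT groups. A normalized count is a gene's read count after the authors' scaling of each library.

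Interferons are cytokines released on viral infection, and they act through receptors that activate JAK kinases and STAT transcription factors. STAT2 and IRF9 belong to a complex that binds the interferon-stimulated response element (ISRE) of antiviral genes, whereas interferon gamma acts mainly through gamma-activated sites (GAS). MHC class I molecules, whose genes interferons can induce, present peptides cut by the proteasome at the cell surface. In the brain, microglia and endothelial cells are known for higher MHC class I expression than most neurons.

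The letters of these elements were searched in the RefSeq promoter windows, which run from 250 bases before to 50 bases after a gene's start (GRCm38.p6) and were found for 26 of the 33 members. The ISRE core searched was a pair of GAAA half-sites with any 2 bases between them (on the other strand a pair of TTTC), and it stood in 12 of the 26 member promoters (46.2%) and in 3.99% of the promoters of 27025 genes. The GAS letters TTCNNNGAA, which read the same on both strands, stood in 7 of 26 (26.9%) and in 9.55% of all genes. Matches of the 2 motifs overlapped in Bst2 and Ifitm3. A match describes the letters of the window and not a bound site.

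Shown are the windows around 1 match each in Isg15, the ubiquitin-like modifier that names the pathway's classic target, in Stat2 and Irf1, which differed between the tissues, in B2m and Ifit3, which had the smallest p of their role groups in KO against WT striatum, and in Bst2, which was high in a pair of striatum libraries. Capitals mark the ISRE core, or in Irf1 the GAS letters, and each sequence is given along the strand of its gene. They lie at chr4:156200871-156200900 (minus strand, 72 bases before the start) for Isg15, chr10:128270266-128270295 (plus strand, 222 bases before) for Stat2 and chr11:53769914-53769942 (plus strand, 90 bases before) for Irf1. B2m has its match at chr2:122147538-122147567 (plus strand, 139 bases before), Ifit3 at chr19:34583397-34583426 (plus strand, 122 bases before) and Bst2 at chr8:71537577-71537606 (minus strand, 124 bases before). All 6 lie upstream of the gene's first transcribed base.
Isg15: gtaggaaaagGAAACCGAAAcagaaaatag
Stat2: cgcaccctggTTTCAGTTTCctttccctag
Irf1: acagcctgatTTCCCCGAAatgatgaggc
B2m: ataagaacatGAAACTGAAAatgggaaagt
Ifit3: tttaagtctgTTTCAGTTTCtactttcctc
Bst2: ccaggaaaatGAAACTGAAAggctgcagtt
Ifih1, a further member that differed between the tissues, held an ISRE core that begins at base 33 of its transcript, and Trim25 held neither motif in its window.

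Libraries held 23260155 to 24006391 counted reads in KO striatum, 22990233 to 25697792 in WT striatum, 28114119 to 30276815 in KO cortex and 26791109 to 29342263 in WT cortex. Slc1a4 was lower in KO in both tissues (-2.56 in striatum and -2.61 in cortex on the log2 scale, limma adjusted p = 2.3e-05 and 1.2e-05), as the labels say. The tissue labels matched their markers: summed over 12 markers of striatal projection neurons, striatum libraries held 56367 to 233594 normalized counts and cortex libraries 12664 to 28522. Replicate 4 of KO striatum and replicate 5 of WT striatum stood apart in 12 choroid plexus markers, with sums of 155135 and 226912, against 6611 to 20117 in the other 13 libraries. For some members, differences are given with and without these 2 libraries. Other differences also moved or changed sign and are not all given both ways below. That of Bst2 between striatum and cortex was 0.14 with all libraries and -0.30 without the 2 in KO. In WT it was 0.24 and -0.18.

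**Figure D1:**
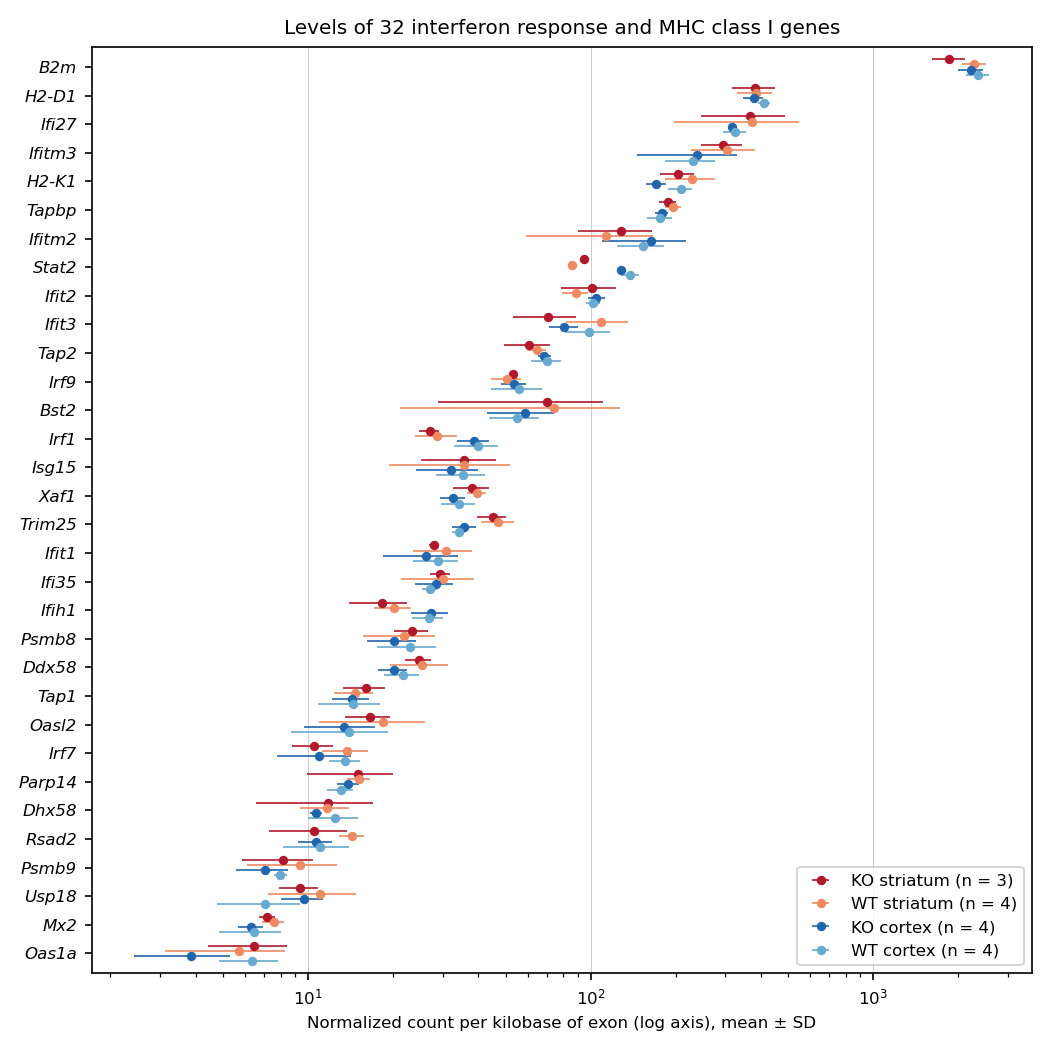
Levels of the 32 members in the 4 groups. The horizontal log axis is the normalized count per kilobase of exon, points are group means and bars are 1 SD; B2m stands highest and Oas1a lowest in every group.

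Per kilobase of exon, the most abundant member in each of the 4 groups was B2m, the light chain of all MHC class I molecules, at 1862 in KO striatum, 2282 in WT striatum, 2215 in KO cortex and 2355 in WT cortex. H2-D1, a class I heavy chain, followed in each group with 382 in KO striatum, 384 in WT striatum, 378 in KO cortex and 411 in WT cortex. Ifi27, an interferon-stimulated membrane protein, and Ifitm3, which hinders the entry of viruses, came next in each group. In KO cortex Ifi27 had 315 ± 9.59 and Ifitm3 238 ± 92.5 normalized counts per kilobase (SD, n = 4). The next members there, Tapbp at 179 ± 10.03, H2-K1 at 171 ± 14.3 and Ifitm2 at 164 ± 53.5, did not differ from each other beyond their spread. At the low end of every group stood Oas1a, an enzyme that makes oligoadenylates on binding viral RNA, with 6.44 in KO striatum, 5.68 in WT striatum, 3.86 in KO cortex and 6.34 in WT cortex. Mx2, a GTPase related to Mx1, was second lowest throughout, at 7.18, 7.58, 6.30 and 6.41 in the same order of groups.

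Ratios between paired genes give a rough scale of the inducible members. Exon length is the union of all annotated exons of a gene, 3381 bases for Psmb8 and 3660 for Psmb9. A transcript can be shorter than this union, so shares and ranks per kilobase, here and above, depend on the annotation. Psmb8, an inducible catalytic subunit of the immunoproteasome, had 2.23% ± 0.459 of the level per kilobase of its constitutive counterpart Psmb5 in KO striatum (SD, n = 3), 1.89% ± 0.382 in WT striatum, 1.87% ± 0.275 in KO cortex and 2.03% ± 0.378 in WT cortex (SD, n = 4 each). For Psmb9 over Psmb6 the shares were 1.05% ± 0.264, 1.06% ± 0.342, 0.983% ± 0.201 and 1.07% ± 0.0336 in that order. The heavy chain H2-K1 stood at 53.9% ± 4.40 of H2-D1 in KO striatum and 59.4% ± 4.35 in WT striatum, and at 45.4% ± 2.27 in KO cortex and 50.5% ± 2.47 in WT cortex.

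The comparison of KO with WT asked which transcripts depend on ASCT1 in each tissue. None of the 32 members passed the test in either tissue. In striatum 0 of 32 were called, against 0.0763% of all genes tested, and in cortex 0 of 32, against 0.00587%, by limma at an adjusted p below 0.05. The count was also 0 in both tissues by edgeR, DESeq2 and voom on the recovered reads. At an unadjusted limma p below 0.05 stood 3 members in striatum (15.3% of all genes) and 1 in cortex (2.51% of all genes). The median log2 fold change of the members was -0.062 in striatum and -0.037 in cortex, where the medians over all genes tested were 0.0079 and 0.0012. The 95% intervals of single members had a median full width of 0.88 on the log2 scale in striatum and 0.81 in cortex. Small changes could therefore have been missed. Precision differed between members, and the interval of Stat2 in striatum ran from 0.0048 to 0.27. In bulk tissue, fewer cells of a type and less RNA per cell cannot be told apart.

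Marker levels also differed between KO and WT striatum. The summed count of 10 cortical excitatory neuron markers was 8221 to 13589 in KO striatum and 4607 to 8492 in WT striatum, and that of 12 striatal projection neuron markers 56367 to 127117 in KO striatum and 108171 to 233594 in WT striatum. The sum of 12 microglia markers was 13748 to 16594 in KO striatum and 16065 to 18117 in WT striatum, and no marker of these lists was at 0 throughout a group. Their part in the striatal differences that follow was not tested.

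**Figure D2:**
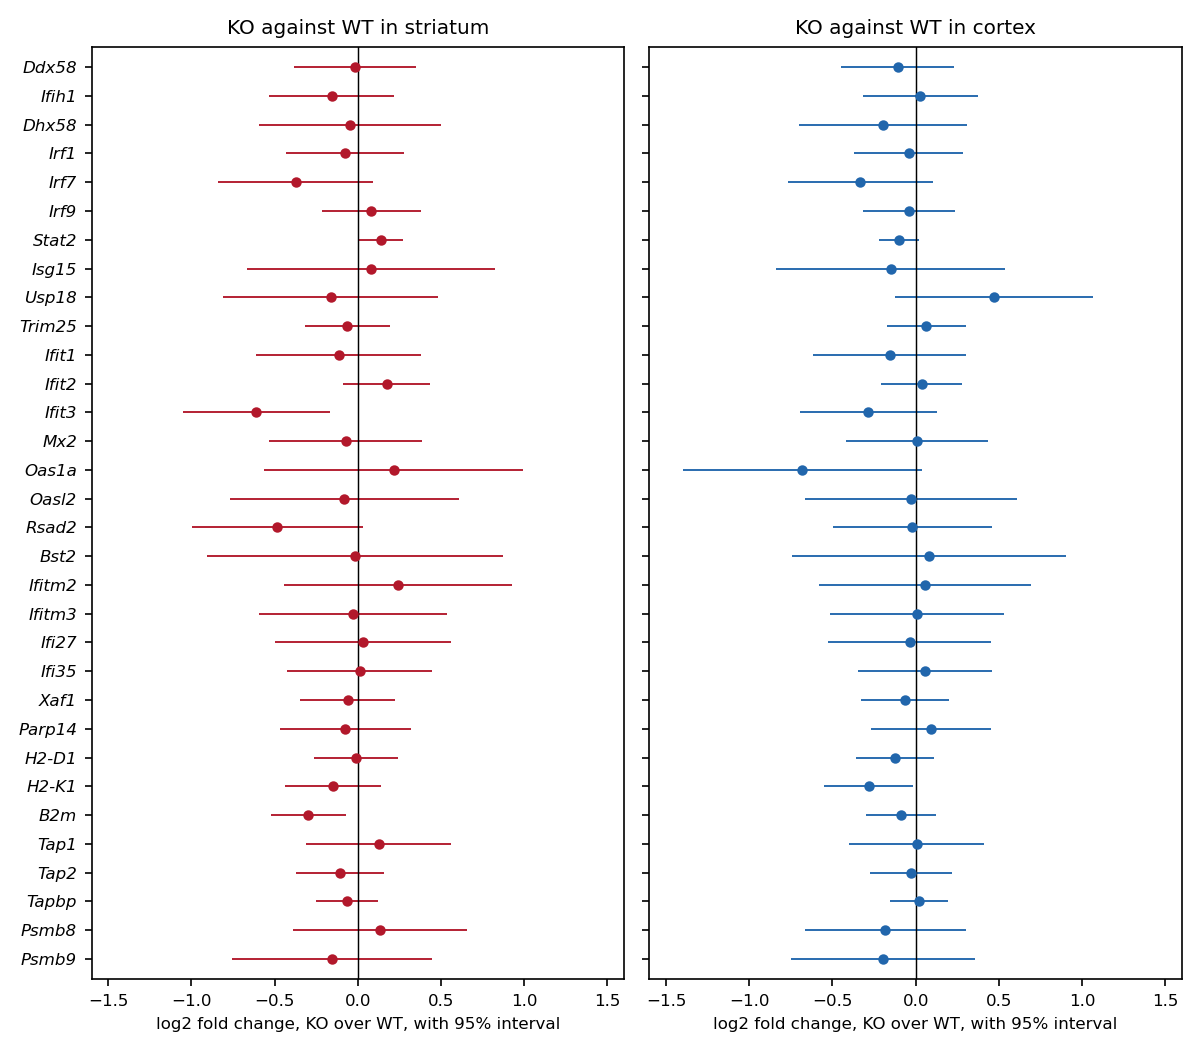
Differences between KO and WT for the 32 members in striatum (left) and cortex (right). The horizontal axis is the log2 fold change of KO over WT, points are limma estimates and bars their 95% intervals; the interval leaves out 0 for Stat2, Ifit3 and B2m in striatum and for H2-K1 in cortex, and none of them passed the test after adjustment.

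Among the sensors of viral RNA, the 3 members overlapped between genotypes in both tissues. Ifih1, which encodes the sensor MDA5, had 115, 147 and 184 normalized counts in KO striatum, against 188, 167, 175 and 129 in WT striatum. Dhx58, which encodes LGP2 and regulates the other sensors, had 26.3, 31.3 and 58.2 normalized counts in KO striatum, against 47.8, 37.6, 29.2 and 38.2 in WT striatum. The KO value of replicate 4 was the highest of the 7 for Dhx58, and the other KO values were among the 3 lowest. In cortex Dhx58 had 36.1, 34.6, 36.7 and 32.7 in KO cortex, against 36.7, 31.4, 49.4 and 46.1 in WT cortex, and Ddx58, which encodes RIG-I, had 129, 165, 143 and 129.7 in KO cortex, against 131, 166, 176 and 138 in WT cortex. The log2 differences in cortex were -0.20 (SE 0.24) for Dhx58 and -0.11 (SE 0.16) for Ddx58, smaller than their standard errors. In striatum they were -0.16 (SE 0.18) for Ifih1 and -0.05 (SE 0.26) for Dhx58, and without the libraries rich in choroid plexus markers they were -0.26 (SE 0.18) and -0.27 (SE 0.23).

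Among the transcription factors, Stat2, a partner of IRF9, was the 1 member of the whole set whose KO and WT striatum libraries did not overlap. It had 564, 545 and 578 normalized counts in KO striatum, against 498, 517, 510.4 and 518 in WT striatum. Each KO library lay above each WT library, which held for 3.96% of all genes in this direction (8.07% in either), and the difference of 0.14 (SE 0.06, limma adjusted p = 0.31) did not pass the test. Without the libraries rich in choroid plexus markers it was 0.10 (SE 0.07, limma adjusted p = 0.48). In cortex Stat2 had 776, 736, 774 and 763 in KO cortex, against 774, 892, 771 and 839 in WT cortex, with a difference of -0.10 (SE 0.06) and overlapping groups. No member had separate groups in cortex, against 4.02% of all genes. Irf7, the factor that drives interferon gene induction, had 32.8, 45.9 and 40.2 normalized counts in KO striatum, against 65.97, 47.8, 44.9 and 48.8 in WT striatum. In cortex it had 35.2, 58.02, 30.4 and 41.99 in KO cortex, against 45.2, 59.9, 48.4 and 51.1 in WT cortex. Of the KO libraries, 2 of 3 in striatum and 3 of 4 in cortex lay below every WT library of the tissue, and 1 in each lay inside the WT range, with differences of -0.37 (SE 0.22) in striatum and -0.33 (SE 0.20) in cortex. Irf9, the DNA-binding part of the complex with STAT2, ranged from 244 to 386 over the 15 libraries, and its differences were 0.08 (SE 0.14) in striatum and -0.04 (SE 0.13) in cortex.

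Of the genes of ISG15 conjugation, Usp18, the protease that removes ISG15 and dampens receptor signalling, had the largest positive estimate in cortex. In striatum Usp18 had 21.9, 30.3 and 26.5 normalized counts in KO striatum, against 42.1, 35.6, 26.9 and 18.02 in WT striatum. In cortex Usp18 had 22.01, 30.9, 24.2 and 30.8 in KO cortex, against 12.2, 27.6, 21.02 and 18.05 in WT cortex. The estimates pointed in opposite directions, at -0.16 (SE 0.30) in striatum and 0.47 (SE 0.28) in cortex, and the difference between them was -0.64 (SE 0.41, limma adjusted p = 0.96). Without the libraries rich in choroid plexus markers, the striatal estimate of Usp18 was -0.0068 (SE 0.35). Trim25, a ubiquitin ligase that acts on RIG-I, had 235, 248 and 293 normalized counts in KO striatum, against 269.6, 299.7, 295 and 222 in WT striatum. In cortex Trim25 had 189, 233, 193 and 208 in KO cortex, against 187, 207, 205 and 186 in WT cortex, so the genotypes overlapped in each tissue. Isg15 itself ranged from 13.8 to 38.6 normalized counts, with both ends in WT striatum.

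Among the antiviral effectors, Ifit3, of a family that binds viral RNA, had the largest striatal estimate of the set. It had 90.9, 152 and 128 normalized counts in KO striatum, against 196, 251, 139 and 173 in WT striatum. The KO libraries were low, with 2 of 3 below every WT library and the third inside the WT range. The difference was -0.61 (SE 0.21, limma adjusted p = 0.22), with a 95% interval of -1.05 to -0.17. Without the libraries rich in choroid plexus markers it was -0.63 (SE 0.25, limma adjusted p = 0.20). In cortex Ifit3 had 134, 160.0, 148 and 122 in KO cortex, against 146, 216, 176 and 154 in WT cortex, with a difference of -0.28 (SE 0.19). Of its 75-base stretches, 41.1% also occur in another gene, Ifit3b, so reads could be split between them. Rsad2, which encodes viperin, had 29.6, 55.3 and 51.9 normalized counts in KO striatum, against 59.1, 69.1, 65.1 and 55.1 in WT striatum. One KO library lay far below the rest, and the difference of -0.48 (SE 0.24, limma adjusted p = 0.35) did not pass. Without the libraries rich in choroid plexus markers it was -0.62 (SE 0.29, limma adjusted p = 0.28). Oas1a had 8.80, 10.3, 5.37 and 4.67 in KO cortex, against 11.3, 9.51, 10.97 and 16.04 in WT cortex, with a difference of -0.68 (SE 0.34) from few reads, and 47.6% of its 75-base stretches occur in other genes. The remaining effectors Ifit1, Ifit2, Mx2 and Oasl2 had differences between -0.11 and 0.17 in striatum and between -0.16 and 0.04 in cortex. Their striatal differences lay between -0.05 and 0.07 without the libraries rich in choroid plexus markers, where Ifit1 (-0.11 with all libraries, 0.03 without), Ifit2 (0.17 and -0.04) and Oasl2 (-0.08 and 0.07) changed sign.

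Among the restriction factors at membranes, Bst2, the tetherin that holds virus particles at the cell surface, had 44.9, 38.6 and 106 normalized counts in KO striatum, against 139, 48.8, 44.9 and 36.03 in WT striatum. The high values were those of replicate 4 in KO and replicate 5 in WT, the libraries rich in choroid plexus markers. In cortex Bst2 had 42.3, 69.2, 59.9 and 40.1 in KO cortex, against 42.4, 54.2, 61.2 and 40.1 in WT cortex, with a difference of 0.08 (SE 0.39). Ifitm2 had 79.9, 61.5 and 110.1 normalized counts in KO striatum, against 125, 44.7, 60.6 and 65.7 in WT striatum, high in the same libraries, and 74.8, 142, 132 and 79.3 in KO cortex, against 94.2, 93.2, 128 and 85.2 in WT cortex. Of the 75-base stretches of Ifitm2, 42.0% occur in other genes. Ifitm3 had 172, 189.9 and 236 normalized counts in KO striatum, against 264, 236, 172 and 154 in WT striatum, with a difference of -0.03 (SE 0.26), and the genotypes overlapped for each of these genes.

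Xaf1, a pro-apoptotic interferon-stimulated gene, had 175, 155 and 206 normalized counts in KO striatum, against 197, 199, 172 and 176 in WT striatum. In cortex it had 175, 152, 143 and 142 in KO cortex, against 166, 185, 131 and 161 in WT cortex. Parp14, an ADP-ribosyltransferase, had 93.1, 138 and 187 normalized counts in KO striatum, against 159, 144, 131 and 131 in WT striatum, with the lowest and the highest of the 7 values both in KO. In cortex Parp14 had 122, 136, 142 and 117 in KO cortex, against 109, 127, 136 and 112 in WT cortex. With all libraries, differences were at most 0.09 in size for these genes in either tissue, as they were for Ifi27 and Ifi35. Without the libraries rich in choroid plexus markers, the striatal differences were -0.26 (SE 0.17) for Parp14, -0.14 (SE 0.15) for Xaf1, 0.15 (SE 0.21) for Ifi35 and 0.06 (SE 0.10) for Ifi27, and none was called by limma.

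The MHC class I chains held the other members with small unadjusted p. B2m had 1387, 1605 and 1811 normalized counts in KO striatum, against 2230.3, 1948, 1805 and 1865 in WT striatum. The KO libraries were low, with 2 of 3 below every WT library. The third, replicate 4, is rich in choroid plexus markers and exceeded 1 WT library, so the groups overlapped. The difference was -0.30 (SE 0.11, limma adjusted p = 0.23), with a 95% interval of -0.52 to -0.07 and an unadjusted limma p of 0.014. Without the libraries rich in choroid plexus markers it was -0.33 (SE 0.10, limma adjusted p = 0.11). In cortex B2m had 1716, 1764, 2057 and 2083 in KO cortex, against 1997, 1866, 2299 and 1937 in WT cortex, with a difference of -0.09 (SE 0.10). H2-K1 had 477, 556, 516 and 462 in KO cortex, against 633, 576, 686 and 552 in WT cortex. The KO cortex libraries lay low, with 3 of 4 below every WT library, and the difference was -0.28 (SE 0.13), with an unadjusted limma p of 0.040 and an adjusted limma p of 0.9998. In striatum H2-K1 had 555, 551 and 698 normalized counts in KO striatum, against 862, 673, 566 and 588 in WT striatum, with a difference of -0.15 (SE 0.14). H2-D1 had 873, 1056, 1021 and 948 in KO cortex, against 1086, 1013, 1125 and 1019.7 in WT cortex, with a difference of -0.13 (SE 0.11), and its striatal difference was -0.01 (SE 0.12), or -0.05 (SE 0.10) without the libraries rich in choroid plexus markers.

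Peptide transport and loading did not separate the genotypes either. Tap2, a subunit of the transporter that carries peptides into the endoplasmic reticulum, had 183, 239 and 265 normalized counts in KO striatum, against 271, 232, 232 and 243 in WT striatum. In cortex Tap2 had 247, 273, 271 and 248 in KO cortex, against 257, 252, 313 and 241 in WT cortex, and its differences were -0.11 (SE 0.12) in striatum, or -0.17 (SE 0.13) without the libraries rich in choroid plexus markers, and -0.03 (SE 0.12) in cortex. Tapbp, the chaperone tapasin that holds class I chains at the transporter, had 628, 686 and 723 normalized counts in KO striatum, against 747, 749, 689.9 and 656 in WT striatum. Its cortex libraries had 615, 700.0, 641 and 635 in KO cortex, against 654, 678, 685 and 545 in WT cortex. Tap1, the other subunit, ranged from 57.1 to 101 over all libraries and shares exon positions with Psmb9 on the opposite strand. Of the 75-base stretches of Tap1, 2.40% occur in Psmb9, as do 3.44% of those of Psmb9 in Tap1. Strand use in the counting is not given in the sources used here, so reads from these stretches cannot be assigned to either gene. Larger shares occur in other genes for Tapbp (18.6%) and Tap2 (8.27%).

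The immunoproteasome subunits were low and variable. Psmb8 had 90.9, 76.1 and 69.9 normalized counts in KO striatum, against 95.5, 84.3, 47.1 and 68.9 in WT striatum, and 56.4, 82.3, 76.04 and 56.9 in KO cortex, against 78.2, 77.97, 99.6 and 55.1 in WT cortex. Psmb9 had 27.4, 22.9 and 39.2 normalized counts in KO striatum, against 46.6, 40.6, 19.1 and 30.7 in WT striatum, and 21.1, 28.1, 32.2 and 21.5 in KO cortex, against 29.2, 30.4, 30.2 and 27.1 in WT cortex. The groups overlapped in each case, with differences between -0.20 and 0.13 in the 2 tissues. Without the libraries rich in choroid plexus markers, the striatal difference of Psmb8 was 0.35 (SE 0.28) instead of 0.13, and that of Psmb9 -0.19 (SE 0.30). Of the 75-base stretches of Psmb8, 9.97% occur in another gene, Gm20496.

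The difference between the KO effects in striatum and cortex was tested directly, and 0 of 32 members were called by limma, edgeR, DESeq2 or voom, against 0.00587% of all genes by limma. At an unadjusted limma p below 0.05 stood 1 member (4.9% of all genes). This was Stat2, whose KO effect was 0.14 in striatum and -0.10 in cortex, a difference of 0.24 (SE 0.08, limma adjusted p = 0.96).

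**Figure D3:**
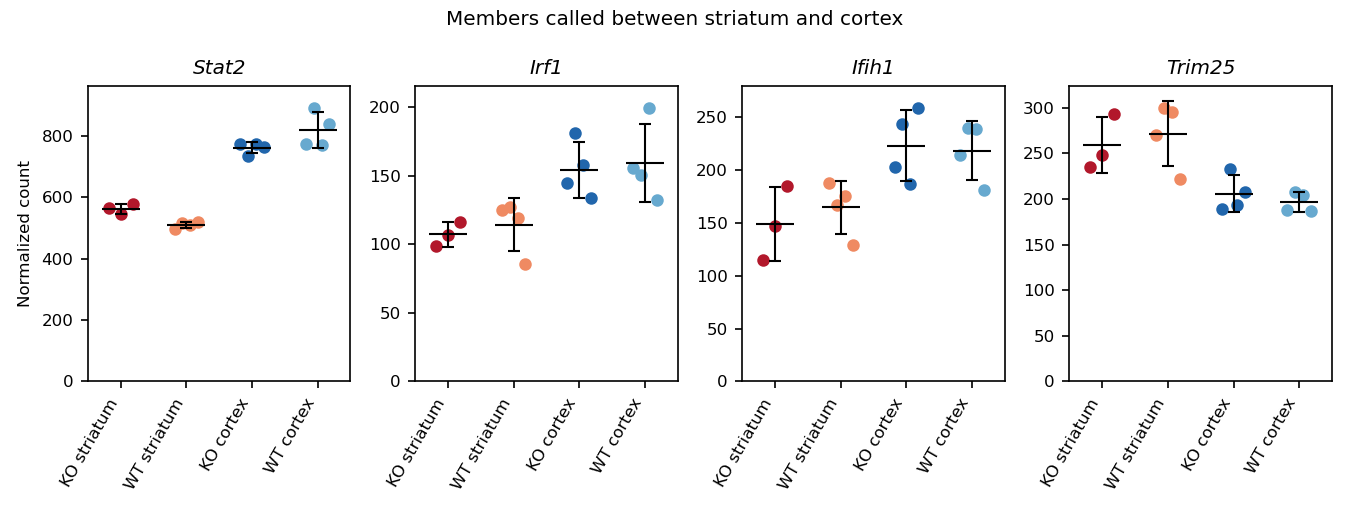
Normalized counts of Stat2, Irf1, Ifih1 and Trim25 by group. Points are single libraries, black bars the mean and 1 SD; for Stat2 every striatum library lies below every cortex library, and for Trim25 every striatum library except 1 of WT lies above every cortex library.

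The tissues were compared within each genotype. In both genotypes 4 of 32 members (12.5%) were called between striatum and cortex, and they were the same 4 genes: Stat2, Irf1 and Ifih1 were lower in striatum and Trim25 was higher. Over all genes tested, 37.9% were called in KO (18.4% higher and 19.5% lower in striatum) and 50.5% in WT (24.9% higher and 25.7% lower). The members' median log2 difference was 0.067 in KO and 0.097 in WT, against 0.0024 and 0.0058 over all genes. Without the libraries rich in choroid plexus markers, it was -0.0491 in KO and -0.0859 in WT. Groups did not overlap for 4 members in KO (41.5% of all genes) and for 3 in WT (47.3% of all genes).

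Stat2 (ENSMUSG00000040033, GRCm38 chromosome 10, 128270559 to 128292849, plus strand) had the clearest difference. It averaged 562 ± 16.8 normalized counts in KO striatum (SD, n = 3) and 762 ± 18.1 in KO cortex (SD, n = 4), and 511 ± 9.24 in WT striatum and 819 ± 58.0 in WT cortex (SD, n = 4 each). The striatal level was 0.74 times the cortical one in KO, a log2 difference of -0.44 (SE 0.06, limma adjusted p = 8.3e-05), and 0.63 times in WT, or -0.68 (SE 0.06, limma adjusted p = 3.5e-07). The call held without any 1 of the 15 libraries and in the other 15 alternatives, in each genotype.

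Irf1 (ENSMUSG00000018899, chromosome 11, 53770014 to 53778374, plus strand), a factor induced by interferon gamma, had 98.5, 106 and 116 normalized counts in KO striatum, against 125, 127, 119 and 85.8 in WT striatum. Its cortex libraries had 144, 181, 157 and 133 in KO cortex, against 155, 150.2, 199 and 132 in WT cortex. Every striatum library lay below every cortex library, and the log2 difference was -0.51 (SE 0.17, limma adjusted p = 0.024) in KO and -0.48 (SE 0.15, limma adjusted p = 0.018) in WT. The KO call was lost without replicate 2 or 3 of KO cortex (limma adjusted p = 0.068 and 0.053) or replicate 2 or 3 of KO striatum (limma adjusted p = 0.078 and 0.055). In WT it was lost without replicate 7 of WT cortex (limma adjusted p = 0.064) or replicate 8 of WT striatum (limma adjusted p = 0.058). Irf1 shares exon positions with the antisense gene Gm17334.

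Ifih1 (ENSMUSG00000026896, chromosome 2, 62595798 to 62646255, minus strand) had 203, 243, 187 and 258 in KO cortex, against 214, 239.6, 239 and 180.5 in WT cortex, and its striatal values are given above. KO striatum and KO cortex did not overlap, and the highest WT striatum library, at 188, lay above the lowest WT cortex library, at 180.5. The log2 difference between striatum and cortex was -0.59 (SE 0.18, limma adjusted p = 0.015) in KO and -0.41 (SE 0.16, limma adjusted p = 0.048) in WT. The KO call was lost without replicate 2 of KO striatum (limma adjusted p = 0.083). The WT value lay at the threshold: without any 1 of replicates 1, 2 and 4 of KO cortex, 5, 6 and 7 of WT cortex, 3 of KO striatum or 6, 7 and 8 of WT striatum it was lost, with limma adjusted p between 0.050 and 0.15.

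Trim25 (ENSMUSG00000000275, chromosome 11, 88999376 to 89020293, plus strand) averaged 259 ± 30.4 normalized counts in KO striatum (SD, n = 3) and 206 ± 19.8 in KO cortex (SD, n = 4), and 271 ± 35.8 in WT striatum and 196 ± 11.1 in WT cortex (SD, n = 4 each). The log2 difference was 0.33 (SE 0.12, limma adjusted p = 0.043) in KO and 0.46 (SE 0.11, limma adjusted p = 0.0034) in WT. The WT call held without any 1 library. The KO call was lost without any 1 of replicates 1, 3 and 4 of KO cortex, 5, 6 and 7 of WT cortex or 3 and 4 of KO striatum, with limma adjusted p between 0.051 and 0.18. Replicate 4 of KO striatum had the highest KO value and is rich in choroid plexus markers: without it the difference was 0.24.

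B2m, at -0.25 (SE 0.11, limma adjusted p = 0.073) between KO striatum and KO cortex, was not called in the main fit. With all libraries, it was called with sample weights, with length and GC trends removed, and with the replicate number as a block. Without the 2 libraries rich in choroid plexus markers it was -0.35 (limma adjusted p = 0.013), lower in KO striatum. Between WT striatum and WT cortex it was -0.05 (SE 0.10, limma adjusted p = 0.72), or -0.11 (SE 0.09, limma adjusted p = 0.31) without those libraries. Ifitm2 was -0.52 in WT (SE 0.30, limma adjusted p = 0.16) and -0.80 without those libraries (limma adjusted p = 0.012). Usp18 was 0.60 in WT (SE 0.28, limma adjusted p = 0.086) and 0.43 without those libraries (limma adjusted p = 0.24). It was called in WT with sample weights, without replicate 6 of WT cortex and without replicate 8 of WT striatum. In KO it was -0.04 (SE 0.30).

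Some lists of cell type markers differed between the tissues and others did so for few genes. Beside their counts, 37.9% of all genes tested were called in KO and 50.5% in WT. Of 12 microglia markers, 4 were higher in striatum in KO and 9 in WT, and none was lower. Their summed count was 13748 to 16594 in KO striatum, 16065 to 18117 in WT striatum, 12353 to 13727 in KO cortex and 12087 to 14988 in WT cortex. The sum of 10 cortical excitatory neuron markers was 8221 to 13589 in KO striatum, 4607 to 8492 in WT striatum, 53245 to 58855 in KO cortex and 53225 to 59473 in WT cortex. Of 12 endothelial and pericyte markers, none was called in KO and 1 was higher in WT striatum, with sums of 9039 to 11229 in KO striatum, 8078 to 10523 in WT striatum, 7692 to 10431 in KO cortex and 6909 to 10182 in WT cortex. Of 6 markers of perivascular macrophages, 4 were lower in striatum in KO and 3 in WT, with sums of 129 to 220 in KO striatum, 125 to 165 in WT striatum, 246 to 511 in KO cortex and 231 to 435 in WT cortex. All 6 oligodendrocyte markers were higher in striatum in both genotypes, with sums of 139141 to 284514 in KO striatum, 200919 to 279140 in WT striatum, 73079 to 86842 in KO cortex and 52436 to 111521 in WT cortex. Of 8 ependymal markers, 7 were higher in striatum in KO and 8 in WT, with sums of 827 to 1914 in KO striatum, 545 to 1513 in WT striatum, 403 to 492 in KO cortex and 165 to 384 in WT cortex. Of 8 astrocyte markers, 1 was higher and 2 were lower in KO striatum, and 3 were higher and 1 lower in WT striatum. Of 10 markers of meninges and fibroblasts, 1 was higher and 2 were lower in KO striatum, and 1 was higher and 3 lower in WT striatum. No marker of these lists was at 0 throughout a group. The part of these cells in the results was not tested.

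The pathway beyond the members was described with further gene lists. No gene of these lists was called by limma between KO and WT in either tissue. Of 11 interferon genes searched as ligands, 3 were matched in the table and none passed the filter. Ifng, which encodes interferon gamma, had 1.06 normalized counts in replicate 4 of KO striatum, 1.14 in replicate 5 of WT striatum and 0.895 in replicate 3 of KO cortex, and 0 in the other 12 libraries. Ifne and Ifnz, type I interferons, did not exceed 1.88 in any library.

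All 6 interferon receptor genes were measured, and Ifngr1, a receptor chain of interferon gamma, was higher in striatum in KO (0.39, SE 0.10, limma adjusted p = 0.0061) and in WT (0.59, SE 0.09, limma adjusted p = 9.4e-05). Ifnar1 and Ifngr2, further receptor chains, were lower in striatum in WT, at -0.25 and -0.43. Of 14 other JAK, STAT, IRF and regulator genes, 2 were higher and 4 lower in KO striatum, and 2 were higher and 5 lower in WT striatum. Beside these counts and that of the sensors below, 37.9% of all genes tested were called in KO and 50.5% in WT. Irf2, which can oppose IRF1 at shared sites, was lower in striatum, with log2 differences of -0.71 in KO (SE 0.09) and -0.79 in WT (SE 0.08). Tyk2, the kinase at the type I interferon receptor, was lower too, at -0.54 in KO (SE 0.10) and -0.78 in WT (SE 0.10). Of 15 other sensors and adaptors, 1 was higher in KO striatum, and 3 were higher and 2 lower in WT striatum. Mavs, the adaptor of RIG-I and MDA5 on mitochondria, was higher in striatum in both genotypes, at 0.56 in KO (SE 0.10) and 0.52 in WT (SE 0.09).

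Of 30 other interferon-stimulated genes, 2 were higher and 4 lower in KO striatum, and 5 were higher and 3 lower in WT striatum. These shares were below the 37.9% of all genes tested that were called in KO and the 50.5% in WT. Herc6, the ligase that attaches ISG15 in mice, stood far below cortex with a log2 difference of -1.88 in KO (SE 0.12, limma adjusted p = 7.7e-08) and -1.88 in WT (SE 0.11, limma adjusted p = 1.4e-08). Herc6 had 181, 273 and 256 normalized counts in KO striatum, against 237, 255, 223 and 226 in WT striatum. In cortex Herc6 had 899.9, 832, 934 and 791 in KO cortex, against 779, 940.4, 922 and 844 in WT cortex. Ifit1bl1, an IFIT family gene, was -0.95 in KO (SE 0.17) and -1.75 in WT (SE 0.15). Of 12 GTPases induced by interferon gamma, Irgm1 and Igtp were lower in striatum in both genotypes (-0.58 and -0.65 in KO, -0.46 and -0.86 in WT).

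Of 18 other genes of MHC class I and peptide loading, 2 were higher and 4 lower in KO striatum, and 4 were higher and 5 lower in WT striatum. Among all genes tested, 37.9% were called in KO and 50.5% in WT. H2-T23, the nonclassical class I gene Qa-1, had 249.6, 217 and 229.7 normalized counts in KO striatum, against 255, 201, 202 and 217 in WT striatum. In cortex H2-T23 had 479.9, 493, 578 and 481 in KO cortex, against 542, 509, 545 and 507 in WT cortex. It was lower in striatum, at -1.12 in KO (SE 0.10, limma adjusted p = 8.8e-07) and -1.27 in WT (SE 0.09, limma adjusted p = 6.2e-08), whereas H2-K1 and H2-D1 were not called. Psmb10, the immunoproteasome subunit outside the set, was also lower in striatum, at -0.77 in KO (SE 0.10) and -1.004 in WT (SE 0.09), whereas Psmb8 and Psmb9 were not called (0.23 (SE 0.24) and 0.19 (SE 0.28) in KO, -0.09 (SE 0.23) and 0.15 (SE 0.26) in WT). Without the libraries rich in choroid plexus markers these were 0.31 and -0.01 in KO and -0.23 and -0.02 in WT. The differences between these genes were not tested. Of 6 MHC class II genes, none was called in KO, and H2-DMa and H2-DMb1, which load peptides on class II, were higher in WT striatum, at 0.62 and 0.95. Of the 3 constitutive proteasome subunits, Psmb6 was higher in WT striatum, at 0.24.

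**Figure D4:**
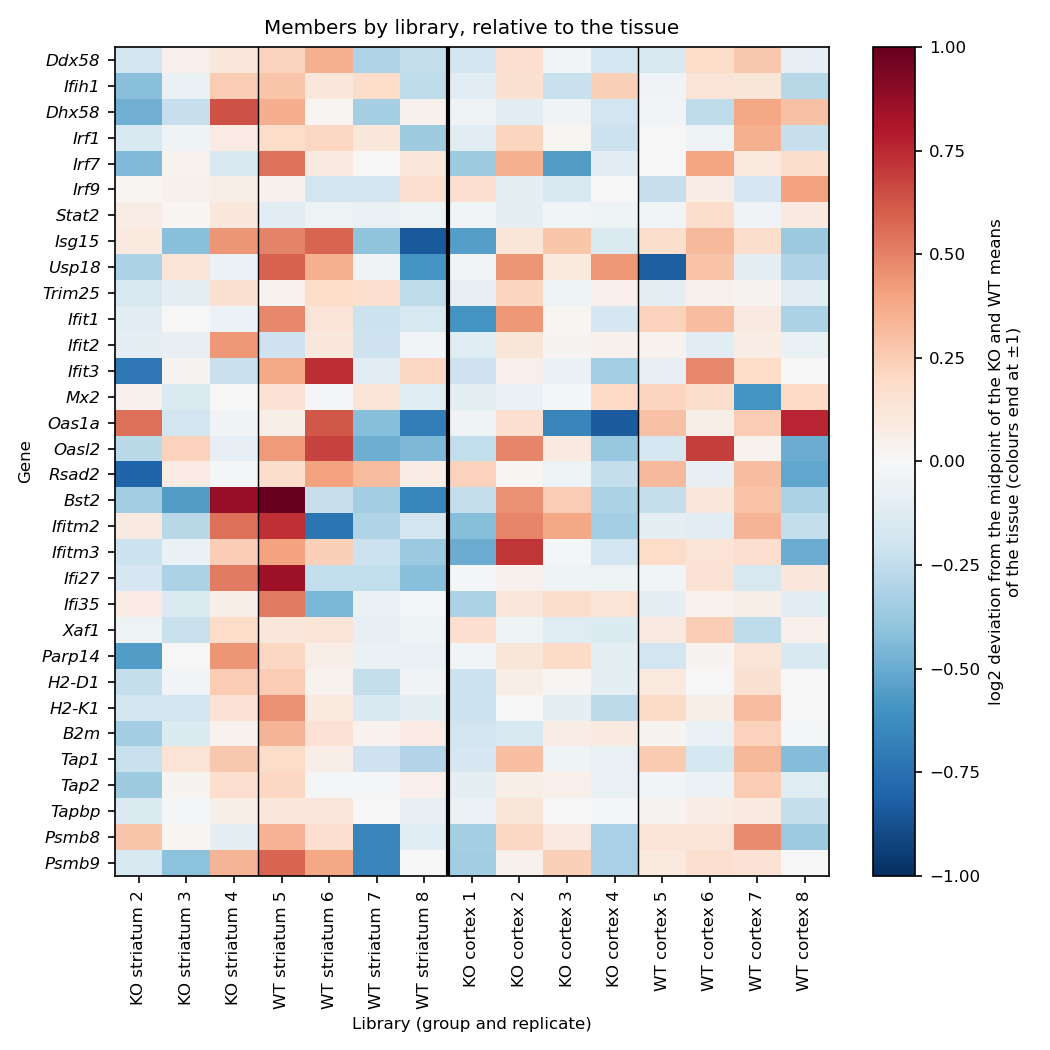
Each of the 32 members in each library, as log2 deviation from the midpoint of the KO and WT means of its tissue (colours end at ±1). Replicate 5 of WT striatum is above the midpoint for 30 of 32 members and replicate 1 of KO cortex for 3.

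The members tended to stand high or low together in single libraries. Set against the midpoint of the KO and WT means of its tissue, replicate 5 of WT striatum was above for 30 of 32 members, with a median deviation of 0.31 on the log2 scale. Replicate 6 of WT striatum was above for 24 and replicate 4 of KO striatum for 23, whereas replicates 7 and 8 of WT striatum were above for 6 and 7 and replicate 2 of KO striatum for 8. In cortex, replicate 2 of KO and replicate 7 of WT were above for 26 members each, and replicates 1 and 4 of KO were above for 3 and 8. The median deviation of all genes tested was within 0.01 of 0 in every library. Replicate 5 of WT striatum held the highest striatal value of 16 of 32 members, and of 19.98% of all genes. Each tissue had high and low libraries in both genotypes. The part of genotype in this order was not tested.

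**Figure D5:**
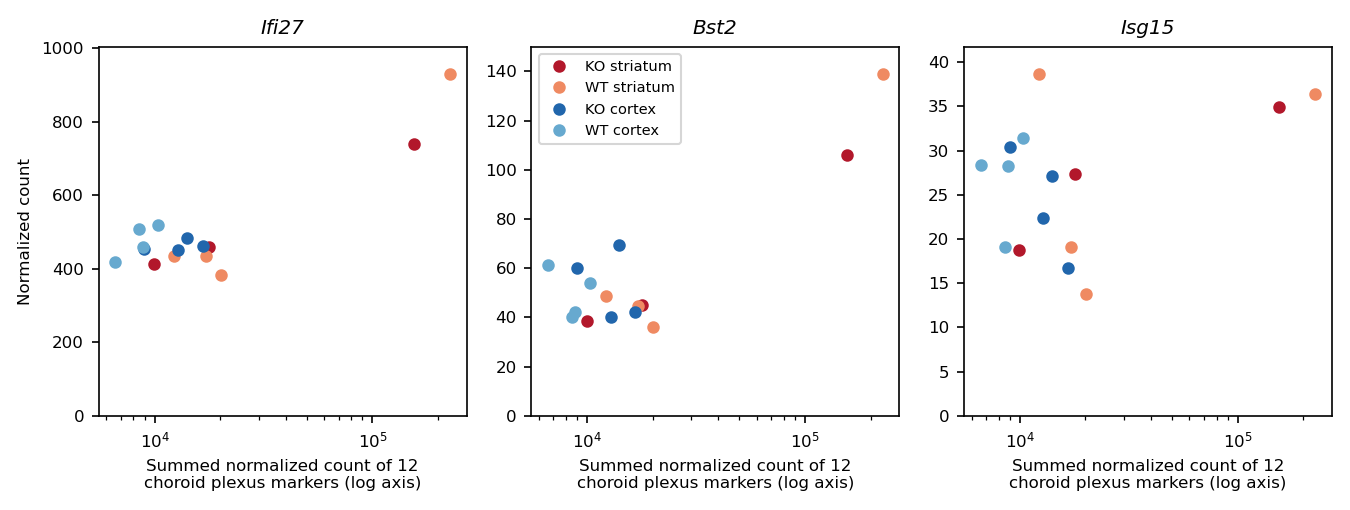
Normalized counts of Ifi27, Bst2 and Isg15 in the 15 libraries against the summed count of 12 choroid plexus markers (log axis). Replicate 4 of KO striatum and replicate 5 of WT striatum lie apart on the right, with the highest Ifi27 and Bst2 values. Isg15 is above its striatal midpoint there, but highest in replicate 6 of WT striatum.

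Ifi27 had 459, 414 and 739.9 normalized counts in KO striatum, against 929, 434, 434 and 385 in WT striatum. In cortex it had 462, 483, 454 and 453 in KO cortex, against 460.5, 519, 419 and 507 in WT cortex. The 2 libraries with choroid plexus sums of 155135 and 226912 were the highest of all 15 for Ifi27 and for Bst2. In the other 13 libraries Ifi27 lay between 385 and 519 and Bst2 between 36.0 and 69.2. Without those 2 libraries the log2 difference of Ifi27 between striatum and cortex was -0.09 in KO and -0.19 in WT, against 0.17 and 0.10 with them, and none of these was called by limma. Isg15 was 34.9 in replicate 4 of KO striatum and 36.4 in replicate 5 of WT striatum, below the 38.6 of replicate 6 of WT striatum. Its log2 difference between striatum and cortex was 0.15 in KO and -0.09 in WT with all libraries. Without those 2 libraries it was -0.05 and -0.27. The part of choroid plexus RNA in the levels of these genes was not tested.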

How the data were processed

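RNA was measured in 15 libraries. Per the submitters' processing notes, the build was GRCm38 and the tools included TopHat2 2.1.1 and HTSeq 0.6.0 (also DESeq2 1.12.4, cutadapt 1.1 and FastQC 0.11.5), with no order given. Strand setting and annotation release are not given in the sources used here. The deposited signal values are gene counts scaled by the authors with a single factor for each library. With the step of each column found, 100% of values were whole reads to a tolerance of 0.001, and reads were recovered for edgeR 4.0.16, DESeq2 1.42.0 and voom. These made 0 calls among the members between KO and WT, as in the limma fit, while over all genes in striatum edgeR called 17, DESeq2 320 and voom 3.

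Genes with a value of 10 or more in at least 3 libraries (17030) entered limma 3.58.1 (R 4.3.3), fitted to log2(value + 1), which understates the change of low genes. The fit had a variance trend, 4 group means and all 15 libraries, and a gene was called at a Benjamini-Hochberg adjusted p below 0.05 over all genes tested. Intervals are at 95%. The test was checked on simulated counts. Positions, exon lengths and shared 75-base stretches were taken from GENCODE M21 on GRCm38 (26316 genes matched by identifier), and promoters from RefSeq (GRCm38.p6).

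Members, lists, markers and tests were chosen with earlier results of these data known. Per-library values are given for every member called and for the 2 members with the smallest p of each role group in each comparison of KO with WT. From each further list up to 4 called genes could be named. Alternatives were other pseudocounts (0.5 and 5), filters and scalings, the other tests, sample weights, robust variances, fewer libraries, removal of length and GC trends, and the replicate number as a block. Replicate numbers were not taken as pairs in the main fit, since KO and WT share none. Striatum and cortex libraries of a genotype do share numbers, and the main fit took these libraries as independent. Whether same-numbered striatum and cortex libraries came from the same animal is not given. Most of them correlated best with their own number, so the fit with the block is given below for the tissue comparisons.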

Additional observations from a re-analysis of the deposited data

Results flagged for a closer look

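Of 96 member groups of 4 libraries, 5 held a library far from the other 3 by Dixon's criterion, about the 1 in 20 that chance gives. Bst2 was 139 normalized counts in replicate 5 of WT striatum, against 36.0 to 48.8 in the other WT striatum libraries, and Ifi27 was 929 there, against 385 to 434. That library is rich in choroid plexus markers, whose part was not tested.

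The other 3 were low values in cortex. Ifi35 was 37.9 in replicate 1 of KO cortex, against 51.5 to 53.7 in the other KO cortex libraries, and that replicate was below the cortex midpoint for 29 of 32 members. Mx2 was 14.6 in replicate 7 of WT cortex, against 25.7 to 26.4 in the other WT cortex libraries, although that replicate was above the midpoint for 26 members. Ifitm3 was 108 in replicate 8 of WT cortex, against 168 to 174.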

How the results depend on the processing

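No member was called between KO and WT, or in the difference of the KO effects, under any of the alternatives run, including each library left out. Over all genes, 13 were called between KO and WT striatum; the count was 0 when only the groups compared were fitted, 3 by voom, 20 with upper quartile scaling, 22 without a filter, 35 with sample weights, 320 by DESeq2 and 341 without the 2 libraries rich in choroid plexus markers. With 1 library left out it was 4 to 516, with 516 without replicate 4 of KO striatum and 187 without replicate 8 of WT striatum. Estimates that were not called changed sign in 57 of 927 alternative values in striatum, 45 of 927 in cortex and 78 of 927 for the difference of effects. With 1 library left out, the members' median ranged from -0.147 to 0.0373 for KO against WT in striatum, from -0.117 to -0.0079 in cortex and from -0.0968 to 0.112 for the difference of effects.

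Between striatum and cortex, 2 to 4 members were called in KO and 2 to 5 in WT with 1 library left out, and the medians ranged from -0.0491 to 0.134 in KO and from -0.0859 to 0.157 in WT. The WT median was -0.0859 without the 2 libraries rich in choroid plexus markers, below 0 where it was 0.097 with them; the KO median was -0.0491 there. Sample weights called 5 members in KO and 6 in WT, and removal of length and GC trends called 4 in KO and 6 in WT. Trim25 was not called in KO under 6 alternatives, nor Ifih1 in WT without a filter or with upper quartile scaling. No call of a member changed direction.

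No paired analysis was possible for KO against WT because those groups share no replicate numbers. Across tissues, same-numbered libraries correlated at 0.0037 to 0.142, and 5 of 7 correlated best with their own number. With the replicate number as a block, 4 members were called in KO (Irf1, Ifih1, Stat2 and B2m), 4 in WT and 0 in the difference of effects. Depth limits the low members, such as Oas1a at 4.67 to 17.3 normalized counts, and 3 to 4 libraries per group limit all of them.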

Other observations

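The members' median coefficient of variation between replicates was 16.9% in KO striatum, 19.2% in WT striatum, 12.5% in KO cortex and 16.1% in WT cortex, against 15.04%, 12.01%, 8.20% and 8.69% over all genes tested in those groups. Single members ranged from 1.501% to 58.9% in KO striatum and from 1.81% to 71.6% in WT striatum. The difference was not tested, and levels were not matched.

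Most markers of blood leukocytes were near the detection limit, as 6 of 14 passed the filter. One of them, Cd4, was higher in striatum, at 3.61 in KO (SE 0.46, limma adjusted p = 3.3e-05) and 4.12 in WT (SE 0.42, limma adjusted p = 2.2e-06). The others were S100a8, S100a9, Ly6c2, Ccr2 and Ptprc, whose differences between the tissues are not given here. Which cells held the Cd4 RNA was not tested. Cd8a was at 0 in every WT striatum library.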
